A study of Mus musculus with 18 samples.

Results

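NF-kB is a family of dimeric transcription factors, and the cells that use it also make the proteins that switch it off. Its 10 genes followed here were picked by name, with earlier results of these data known. Counts of them set beside a share of all genes are therefore descriptions and not separate evidence. The 5 subunits are Nfkb1, Nfkb2, Rel, Rela and Relb. The other genes are the inhibitors of the IkB family Nfkbia, Nfkbiz and Nfkbid, and the ubiquitin-system genes Tnfaip3 and Birc3. Together they were 10 of the 24781 gene entries in the count table. Of these 10 genes, 7 were among the 1916 genes with enough counts to be tested, and Rel, Rela and Relb were not.

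RNA was sequenced from group 2 innate lymphoid cells (ILC2), tissue lymphocytes without rearranged antigen receptors that secrete type 2 cytokines. All mice were Rag2 KO, and so lacked T and B cells. Control groups carried no other labelled change, and knockout (KO) groups were CD45 KO x Rag2 KO, CD45 being the membrane tyrosine phosphatase encoded by Ptprc. There were 3 libraries in each of 6 groups: control and CD45 KO cells of each of mature ILC2 from bone marrow, immature ILC2 from the same tissue (labelled ILC2P) and lung ILC2. The series design asks how freshly sorted ILC2 of the 2 genotypes differ in bone marrow and lung. Nothing in the labels says that the 3 libraries of a group came from separate mice, so p-values measure only the spread between these samples, which may be technical.

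The subunits bind DNA as pairs. In resting cells IkB proteins hold most dimers in the cytoplasm. Receptor signals, among them those of interleukin-33 and tumour necrosis factor family ligands in ILC2, activate a kinase that marks IkB for destruction and frees the dimer. A second, slower route depends on processing of the Nfkb2 precursor. NF-kB then raises transcription of Nfkbia and Tnfaip3, whose products end the signal, which is why these genes are called feedback inhibitors.

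Total counts were 68077 to 122250 per library, and 7189 to 8793 genes were detected. Levels are given as CPM, counts scaled to library size with TMM factors, and a gene with 0 counts in the shallowest case could still have been at up to 44.7 CPM (3 counts). Such limits and all counting intervals cover counting error only. Ptprc lay at 253 to 628 CPM in the control libraries and at 42.0 to 238 CPM in the CD45 KO libraries. Genes that mark ILC2 summed to 5997 to 8456 CPM in marrow and 12340 to 15260 CPM in lung libraries. The library labelled mature CD45 KO replicate 1 stood apart from its group, with a chi-square per degree of freedom of 3.61 to 3.84 against its 2 mates, where the other pairs within groups were at 1.12 to 1.80. Its Ptprc level was 238 CPM, near the 253 CPM of mature control replicate 1, while its mates were at 101 and 88.0 CPM. Mature control replicate 1 held 159 counts of neutrophil markers. Lung CD45 KO replicate 1 held 25 counts of macrophage markers, with Csf1r at 0, whereas the other 5 lung libraries held 0. Xist had 52 to 105 counts in each of the 6 lung libraries and 0 in all 12 marrow libraries, and Ddx3y had 0 in lung and 4 to 13 counts in marrow. In these data, tissue and sex therefore cannot be told apart in any comparison of lung with marrow, while KO and control within a population shared the same pattern.

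Promoter sequence is given here as a description only, with no measure of which factors bind it. RefSeq promoter sequences (GRCm38.p6, the mm10 assembly, 250 bases before to 50 after a start) were found for 7 of the 10 genes, as 12 entries, and were searched on both strands for the kappaB consensus, the DNA element that NF-kB dimers bind. A match was present in 8.46% of all 32851 promoter entries of this length, and in 7 of the 12 entries, which belong to 5 genes: Nfkb2, Rel, Nfkbia, Nfkbid and Tnfaip3. The entries are not separate, since Nfkb2 has several and overlapping windows of it share the match GGGACTTTCC. The genes were also picked as part of this pathway, and an excess of matches was not tested. Birc3 and Rela had no match to these letters in their windows. Nfkb1, Nfkbiz and Relb are named only. Shown first are 250 bases before a start of each of the inhibitor genes Nfkbia and Nfkbid, with kappaB matches in capitals. The Nfkbia sequence is chr12:55492648-55492897 on the minus strand, outside annotated exons, and its match lies 29 bases before the start. The Nfkbid sequence is chr7:30422156-30422405 on the plus strand, outside annotated exons and within the gene, before the second of its 3 listed starts, with matches 226 and 181 bases before that start.
Nfkbia: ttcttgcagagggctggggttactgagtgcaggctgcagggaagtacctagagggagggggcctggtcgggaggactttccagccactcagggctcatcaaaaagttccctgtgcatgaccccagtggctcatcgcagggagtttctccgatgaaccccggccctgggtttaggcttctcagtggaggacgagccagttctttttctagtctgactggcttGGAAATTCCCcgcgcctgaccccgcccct
Nfkbid: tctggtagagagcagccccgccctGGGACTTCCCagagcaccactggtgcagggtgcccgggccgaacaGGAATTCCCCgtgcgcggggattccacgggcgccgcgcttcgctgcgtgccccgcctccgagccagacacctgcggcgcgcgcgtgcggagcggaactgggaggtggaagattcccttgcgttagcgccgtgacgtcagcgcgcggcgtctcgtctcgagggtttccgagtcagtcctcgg

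Shorter windows of 30 bases show matches in Tnfaip3, Rel and Nfkb2, again 5′ to 3′ with the match in capitals. Those of Tnfaip3 are chr10:19015516-19015545 and chr10:19015403-19015432 on the minus strand, 125 and 12 bases before the first of 2 listed starts. Both matches lie outside annotated exons, inside the gene and downstream of the first exon of a longer transcript. That of Rel is chr11:23771042-23771071 on the minus strand, 92 bases before the start, and an overlapping match begins 1 base on. That of Nfkb2 is chr19:46304688-46304717 on the plus strand, 39 bases before the start, also with an overlapping match 1 base on. This is the first of 3 listed starts and lies 417 bases inside the gene, and all 250 bases before it are within an annotated exon.
Tnfaip3 upstream: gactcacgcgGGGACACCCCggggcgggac
Tnfaip3 at the start: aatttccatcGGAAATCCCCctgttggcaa
Rel: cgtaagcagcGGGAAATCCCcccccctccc
Nfkb2: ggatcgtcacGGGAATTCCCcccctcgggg

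A match in these letters is a description of the sequence and not a measured binding site. No binding was measured in these libraries.

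In lung control ILC2, transcripts of the inhibitors stood far above their level in marrow, while the tested subunits did not pass. Of the 7 tested genes, 5 would have passed the filter on low counts in the 12 marrow libraries alone, and of these Nfkbia, Nfkbiz and Tnfaip3 were higher in lung against both mature and immature marrow ILC2 and none was lower. Nfkbid and Nfkb2 entered the test through their lung counts. Nfkbid was higher too, but the filter favours a difference in such genes, so it is left out of this count. Nfkb2 was not called. Of the 375 genes that entered in this way, 39.5% passed against mature and 38.1% against immature ILC2. Lung and marrow differed widely: 25.6% of all tested genes passed against mature and 25.5% against immature ILC2, and 22.3% and 22.4% of the 1541 genes that pass the filter in marrow alone (edgeR's quasi-likelihood test, two-sided, Benjamini-Hochberg adjusted p under 0.05). In bulk RNA, more cells with a transcript and more transcript per cell cannot be told apart.

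**Figure D1:**
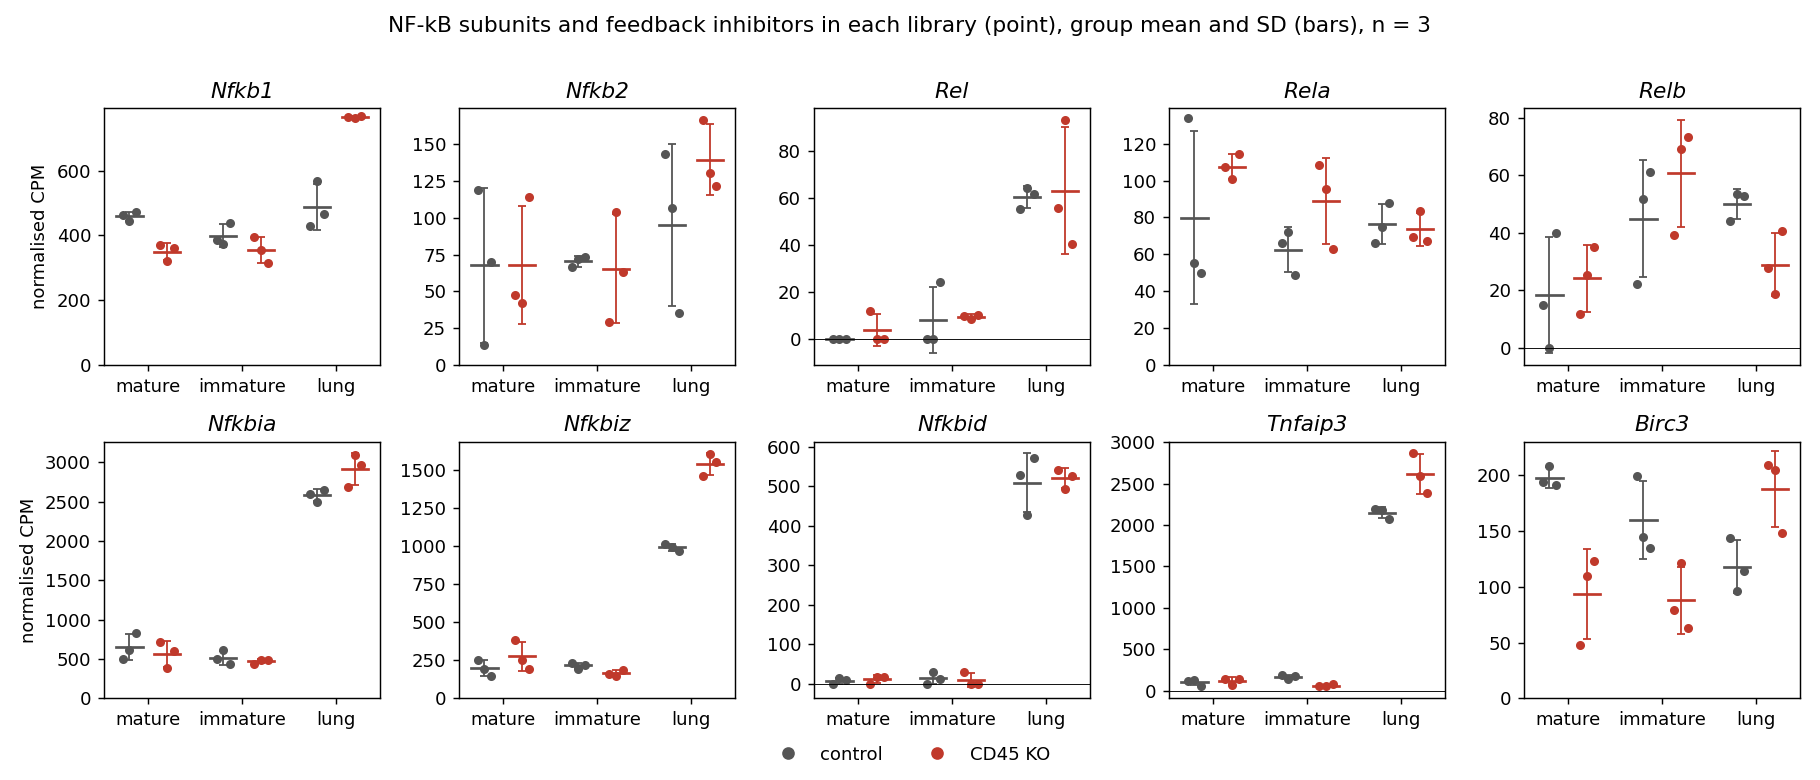
CPM (linear axis, TMM-scaled library sizes) of each of the 10 genes in control (grey) and CD45 KO (red) ILC2 of the 3 populations; points are the 18 libraries, bars the group mean and SD (n = 3), and each panel has its own scale. Nfkbia, Nfkbiz, Nfkbid, Tnfaip3 and Rel lie higher in all 6 lung libraries than in any of the 12 marrow libraries, whereas Nfkb1, Nfkb2, Rela, Relb and Birc3 overlap between the tissues.

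Nfkb1 encodes p105, the precursor of the p50 subunit, and lies at chr3:135584655-135691547 on the minus strand (mm10, GENCODE M21). Its levels were 462, 444 and 471 CPM in mature controls, 387, 372 and 439 CPM in immature controls, and 430, 567 and 466 CPM in lung controls. The control groups overlapped between lung and each marrow population. The log2 fold change was 0.08 ± 0.19 (SE) for lung against mature ILC2 (adjusted p = 0.804) and 0.29 ± 0.19 against immature ILC2 (adjusted p = 0.285).

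With CD45 KO, Nfkb1 was at 765, 763 and 769 CPM in lung CD45 KO libraries, each above every lung control and every marrow library. It rose from 488 ± 71.0 to 766 ± 3.10 CPM (SD, n = 3 each), a log2 fold change of 0.65 ± 0.17 with an adjusted p of 0.0189 (edgeR). Without lung CD45 KO replicate 1, the library with macrophage marker counts, it was 0.67 ± 0.19 (adjusted p = 0.0352). The call was lost without lung CD45 KO replicate 2 (adjusted p = 0.0749), lung control replicate 1 (0.0990) or lung control replicate 3 (0.0952), and without the filter on low counts (0.198). In mature marrow ILC2 the CD45 KO libraries were at 369, 320 and 361 CPM, all lower than controls (log2 fold change -0.40 ± 0.20, adjusted p = 0.549). In immature ILC2 they were at 394, 355 and 315 CPM and overlapped the controls (-0.16 ± 0.20, adjusted p = 0.816).

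Nfkb2, the p100 precursor of the slower route, was counted 1 to 13 times per marrow library and 4 to 14 times per lung library. Its mean was between 65.5 and 95.1 CPM in every group other than lung CD45 KO, where it was 139.5 ± 24.1 CPM. The lung groups overlapped, and the log2 fold change for KO against control was 0.59 ± 0.43 (adjusted p = 0.598), with an approximate 95% interval (1.96 SE) from -0.26 to 1.44. At this depth a doubling of Nfkb2 could not have been told from no change.

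Rel, Rela and Relb did not pass the filter on low counts, and their tests come from a fit of 12945 genes without a filter. Rel encodes c-Rel, a subunit prominent in activated lymphocytes. It had 0, 0 and 0 counts in mature controls, 0, 0 and 2 in immature controls, and 5, 6 and 7 in lung controls. With CD45 KO it had 1, 0 and 0 counts in mature, 1, 1 and 1 in immature, and 4, 10 and 3 in lung ILC2. Every lung library was above every marrow library in CPM, with 40.5 to 93.1 in lung and at most 24.4 in marrow. With the 0 counts of the mature control group taken as 3 over the group, the lung control group was 4.81-fold higher. The exact 95% counting interval of the ratio starts at 3.53. Against immature controls the ratio was 8.13, with a counting interval of 1.95 to 72.2 (exact, 95%). In the fit without a filter Rel passed in both comparisons, with adjusted p = 0.000608 against mature and 0.0156 against immature ILC2. The second call was lost without immature control replicate 1 (adjusted p = 0.136), immature control replicate 2 (0.149) or lung control replicate 3 (0.0595).

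Rela, the p65 activating subunit, had 4 to 13 counts per marrow library and 5 to 10 per lung library. Its group means ran from 62.5 CPM in immature controls to 108 CPM in mature CD45 KO ILC2. Lung against mature controls gave a log2 fold change of 0.16 ± 0.48 and KO against control in lung -0.03 ± 0.47, and the libraries overlapped in both. Relb, the partner of processed Nfkb2, had 0 to 8 counts per marrow library and 2 to 6 per lung library. In lung its CD45 KO libraries had 2, 2 and 3 counts and the controls 4, 5 and 6, all lower (log2 fold change -0.82 ± 0.67, adjusted p = 0.965). Neither gene passed in any comparison.

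Nfkbia encodes IkB-alpha, the inhibitor that enters the nucleus and strips NF-kB from DNA, and lies at chr12:55489410-55492647 on the minus strand. Its levels in controls were 507, 611 and 832 CPM in mature, 498, 610 and 439 CPM in immature, and 2601, 2492 and 2647 CPM in lung ILC2. The lung controls lay above every marrow library. The increase was 3.87-fold over mature ILC2 (log2 1.95 ± 0.16, adjusted p = 3.61e-19) and 4.96-fold over immature ILC2 (log2 2.31 ± 0.16, adjusted p = 8.47e-23).

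The lung CD45 KO libraries held 2684, 3089 and 2968 CPM of Nfkbia. All 3 were above the highest lung control, but the difference did not pass (log2 fold change 0.18 ± 0.13, adjusted p = 0.580), and its interval ran from -0.07 to 0.43. Mature CD45 KO libraries had 715, 388 and 598 CPM and immature ones 444, 493 and 494 CPM, overlapping their controls.

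Nfkbiz encodes IkB-zeta, an inducible nuclear IkB protein that can activate as well as repress NF-kB target genes. It lies at chr16:55811375-55838899 on the minus strand. Controls were at 253, 194 and 150 CPM in mature, 232, 196 and 220 CPM in immature, and 1014, 995 and 967 CPM in lung ILC2. The lung level was 5.10-fold that of mature ILC2 (log2 2.35 ± 0.21, adjusted p = 1.23e-16) and 4.57-fold that of immature ILC2 (log2 2.19 ± 0.20, adjusted p = 2.19e-16).

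With CD45 KO, lung Nfkbiz was at 1460, 1601 and 1552 CPM, with no overlap with the lung controls. It rose from 992 ± 23.5 to 1537 ± 71.2 CPM (SD, n = 3), a log2 fold change of 0.64 ± 0.14 with an adjusted p of 0.00312 (edgeR). Without lung CD45 KO replicate 1 it was 0.69 ± 0.16 (adjusted p = 0.00512), and it passed under every alternative tried, with adjusted p-values from 0.00139 to 0.0346. In mature ILC2 the CD45 KO libraries were at 381, 253 and 194 CPM, overlapping the controls (0.46 ± 0.26, adjusted p = 0.627). The 381 CPM belongs to replicate 1, which stood apart from its group. In immature ILC2 they were at 158, 147 and 189 CPM, all below the controls, with no call (-0.40 ± 0.28, adjusted p = 0.600).

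Nfkbid encodes IkB-NS, another nuclear IkB protein, and lies at chr7:30421732-30428746 on the plus strand. It was almost absent from marrow counts. Mature libraries had 0, 1 and 1 without and 0, 2 and 2 with CD45 KO. Immature libraries had 0, 3 and 1 without and 3, 0 and 0 with CD45 KO. Lung controls had 48, 40 and 65 counts, or 529, 428 and 572 CPM. The ratio of lung to mature control counts, scaled by library size, was 61.3 with a counting interval of 16.7 to 511 (exact, 95%), and to immature controls 34.6 with 13.2 to 128. Nfkbid reached the filter's minimum of 10 counts in 0 of 12 marrow libraries and in all 6 lung libraries. It therefore entered the test only through lung, and the filter favoured a difference there.

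Loss of CD45 left lung Nfkbid at 542, 493 and 526 CPM, within the range of the lung controls. The log2 fold change was 0.02 ± 0.20 (adjusted p = 0.986), and its interval of -0.39 to 0.42 leaves out a change as large as that fitted for Nfkb1 or Nfkbiz.

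Tnfaip3 encodes A20, which edits ubiquitin chains on signalling proteins and so shuts off the pathway upstream of IkB. It lies at chr10:19000910-19015657 on the minus strand. Of the 10 genes, it had the largest difference between tissues among those counted in every library. Controls were at 119, 125 and 60.2 CPM in mature, 188, 145 and 171 CPM in immature, and 2193, 2182 and 2075 CPM in lung ILC2. The lung level was 21.9-fold that of mature ILC2 (log2 4.46 ± 0.22, adjusted p = 1.08e-31) and 12.8-fold that of immature ILC2 (log2 3.67 ± 0.19, adjusted p = 2.80e-30). It reached 10 counts in 5 of 12 marrow libraries and in 6 of 6 lung libraries. Within marrow, mature controls were all below immature controls, without a call (log2 fold change -0.78 ± 0.35, adjusted p = 0.859).

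In immature marrow ILC2 Tnfaip3 was the 1 gene of the 7 that changed with CD45 KO. Controls had 17, 14 and 14 counts of it, CD45 KO libraries 5, 6 and 7, or 188, 145 and 171 CPM against 49.3, 51.9 and 73.5 CPM. It fell from 168 ± 21.8 to 58.2 ± 13.3 CPM (SD, n = 3), to 0.35 of the control level, with a log2 fold change of -1.51 ± 0.37 and an adjusted p of 0.0115 (edgeR). The call was lost without immature CD45 KO replicate 1 (adjusted p = 0.0682), immature CD45 KO replicate 2 (0.0718) or immature control replicate 1 (0.102), and without the filter on low counts (0.0795). The summed level of 15 ILC2 markers was also lower in these KO libraries (5997 to 6983 CPM) than in immature controls (7493 to 8456 CPM), with 2 of the 15 lower by the test and 0 higher, and its part in the result was not tested. In mature ILC2 the KO libraries were at 143, 67.4 and 141 CPM and overlapped the controls (0.24 ± 0.37, adjusted p = 0.919). In lung they were at 2865, 2596 and 2388 CPM, all above the controls, and the difference did not pass (0.28 ± 0.12, adjusted p = 0.246).

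Birc3 encodes cIAP2, a ubiquitin ligase of tumour necrosis factor receptor complexes that is itself an NF-kB target, and lies at chr9:7848699-7873186 on the minus strand. It did not share the lung pattern of the inhibitors. Controls were at 194, 208 and 190.5 CPM in mature, 199, 145 and 134 CPM in immature, and 143, 96.3 and 114 CPM in lung ILC2. Lung controls were all below mature controls (log2 fold change -0.74 ± 0.32, adjusted p = 0.0841) and overlapped immature controls (-0.44 ± 0.33, adjusted p = 0.364).

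In CD45 KO libraries Birc3 was at 47.7, 109.5 and 123 CPM in mature and 78.9, 121 and 63.0 CPM in immature ILC2, below every control of the same population. The log2 fold changes were -1.0 ± 0.33 (adjusted p = 0.209) and -0.83 ± 0.35 (adjusted p = 0.266). The 47.7 CPM belongs to mature CD45 KO replicate 1, which stood apart from its group. In lung the KO libraries were at 209, 205 and 148 CPM, above every control (0.68 ± 0.32, adjusted p = 0.301). None of the 3 differences passed.

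The 3 CD45 comparisons can be read side by side over the 7 tested genes. These genes were picked with earlier results of these data known, so their counts beside the background are a description only. In lung 2 rose, Nfkb1 and Nfkbiz, none fell, and all 7 fold changes were positive, with a median of 0.59 beside 0.01 over all genes. Among them Nfkbid was at 0.02 ± 0.20 and changed sign in some alternative fits. The background was 2.51% of tested genes called in lung. The summed level of listed immediate-early and dissociation genes was also higher in these libraries (21030 to 22180 CPM with CD45 KO, 14720 to 16290 CPM in controls). Its part in the result was not tested. The summed level of 15 ILC2 markers was higher in them as well (13360 to 15260 CPM against 12340 to 12720 CPM, with 3 markers higher by the test and 0 lower), and its part was not tested either. In immature ILC2 none rose, 1 fell, Tnfaip3, and 0 of 7 fold changes were positive, with a median of -0.40 beside -0.01 and a background of 1.67%. Among them Nfkb2 (-0.07 ± 0.52), Nfkbia (-0.12 ± 0.20) and Nfkbid (-0.565 ± 1.004) changed sign in some alternative fits. In mature ILC2 none passed, 4 of 7 were positive, the median was 0.05 beside 0.00, and the background was 0.261%. With edgeR at an unadjusted threshold of 0.05, 173 of the 1916 genes passed in mature ILC2, among them Nfkb1 and Birc3.

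**Figure D2:**
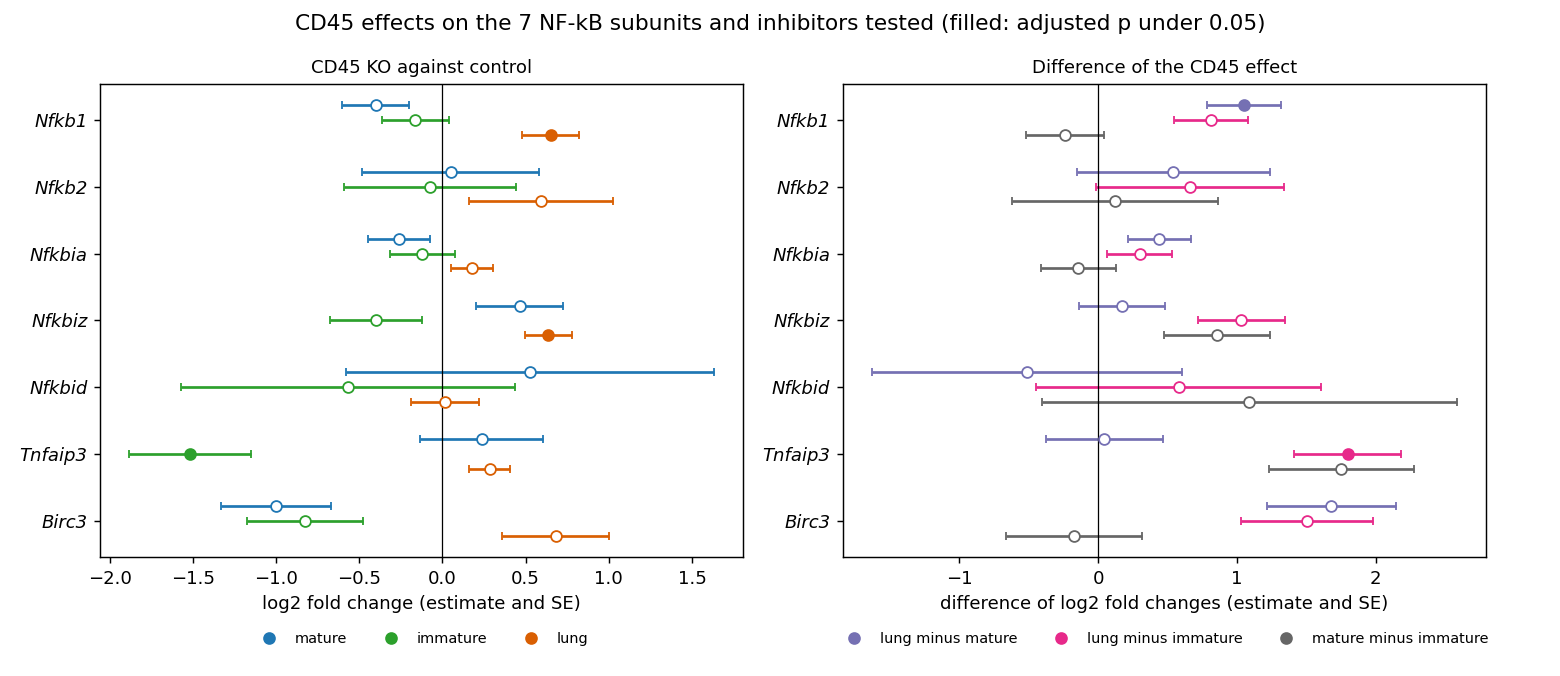
Left, log2 fold change of CD45 KO against control for the 7 tested genes in mature, immature and lung ILC2; right, the difference of these effects between populations; bars are the SE and filled points passed the test (edgeR). On the left all 7 are above 0 in lung and below 0 in immature ILC2, with Nfkb1 and Nfkbiz filled in lung and Tnfaip3 in immature ILC2. The SE bars of Nfkbid in lung, and of Nfkb1, Nfkb2, Nfkbia and Nfkbid in immature ILC2, reach across 0. On the right Nfkb1 (lung minus mature) and Tnfaip3 (lung minus immature) are filled.

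Whether the effect of CD45 differed between populations was tested as a difference of log2 fold changes in the same fit. The effect on Nfkb1 was higher in lung than in mature ILC2 by 1.05 ± 0.26 (adjusted p = 0.0461), where 0.313% of all genes passed. Over the alternatives tried, this adjusted p reached 0.489 (without the filter on low counts), and leaving out any library other than lung control replicate 2 or mature CD45 KO replicate 1 took it past the threshold. Birc3 had a larger difference, 1.68 ± 0.46, with an adjusted p of 0.0754. The effect on Tnfaip3 was higher in lung than in immature ILC2 by 1.80 ± 0.39 (adjusted p = 0.00646), where 0.365% of all genes passed. That call was lost without immature CD45 KO replicate 1 (adjusted p = 0.0650) or immature control replicate 1 (0.0818). For Nfkb1, Nfkbiz and Birc3 the differences between lung and immature ILC2 were 0.81 ± 0.26, 1.03 ± 0.31 and 1.51 ± 0.47, with adjusted p-values of 0.132, 0.107 and 0.111.

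Between mature and immature ILC2 none of the 7 effects differed by the test, and 0 of the 1916 genes passed (0% called, with edgeR), although 94 passed at an unadjusted threshold of 0.05. Tnfaip3 and Nfkbiz were among these 94, with differences of 1.75 ± 0.52 (adjusted p = 0.761) and 0.86 ± 0.38 (adjusted p = 0.946). Between the control libraries of mature and immature ILC2, 0.0522% of genes passed, and the 7 genes were at log2 fold changes from -0.78 to 0.36 with none called. These differences share libraries with the comparisons above and are not separate evidence.

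Few genes upstream in the pathway had enough counts to be tested. Of 19 listed receptors, 4 were tested. With CD45 KO, 0 rose and 1 fell in immature ILC2, Il1rl1, the interleukin-33 receptor, at 1502 ± 45.3 CPM in controls and 917 ± 108 CPM in KO (log2 fold change -0.71 ± 0.15, adjusted p = 0.00298). Among all tested genes 1.67% passed in immature ILC2. No receptor passed in mature or lung ILC2, where 0.261% and 2.51% of all genes passed. The nearest in lung was Tnfrsf18, which encodes GITR, at 366 ± 89.6 CPM in controls and 563 ± 114 CPM in KO (0.62 ± 0.20, adjusted p = 0.0861). Between tissues Il17rb, a subunit of the interleukin-25 receptor, was lower in lung than in mature ILC2 (-1.33 ± 0.39, adjusted p = 0.00585) and than in immature ILC2 (-1.49 ± 0.37, adjusted p = 0.000937). Tnfrsf18 was higher in lung than in immature ILC2 (0.66 ± 0.24, adjusted p = 0.0291). These calls stand beside 25.6% of all tested genes called against mature and 25.5% against immature ILC2.

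Of 27 adaptors and kinases, 6 were tested and none passed for CD45 in any population. In lung against mature ILC2, 3 rose and none fell: Ikbkb, the catalytic kinase that marks IkB, Map3k8, a kinase held by p105, and Traf1, an adaptor of tumour necrosis factor receptors. Their log2 fold changes were 1.73 ± 0.52, 2.42 ± 0.75 and 1.65 ± 0.55, with adjusted p-values of 0.00782, 0.0101 and 0.0163. None of the 3 reached 10 counts in any marrow library, so they entered the test only through lung, where they are high. The filter thus favoured a difference in them. Of all tested genes, 25.6% passed against mature and 25.5% against immature ILC2. Against immature ILC2 only Ikbkb passed (1.23 ± 0.47, adjusted p = 0.0435). Map3k8 (1.63 ± 0.64, adjusted p = 0.05005) and Traf1 (0.76 ± 0.46, adjusted p = 0.239) did not. Ikbkb had 10, 14 and 18 counts in lung controls, against 2, 9 and 5 after CD45 KO, without a call (-1.15 ± 0.47, adjusted p = 0.205).

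Of 16 genes listed with the ubiquitin enzymes, 7 were tested, none passed for CD45, and 1 rose in lung against each marrow population. This was Tnfaip8, which is not itself a ubiquitin enzyme (0.86 ± 0.29, adjusted p = 0.0196 against mature, and 0.88 ± 0.28, adjusted p = 0.0134 against immature ILC2). The share of all tested genes that passed was 25.6% against mature and 25.5% against immature ILC2. Of 10 other inhibitors and corepressors, 2 were tested and neither passed for CD45. Nfkbie, which encodes IkB-epsilon, and Zc3h12a, which encodes the RNA-degrading enzyme regnase-1, both rose in lung against mature ILC2. Nfkbie had 11, 10 and 11 counts in lung controls and 2, 3 and 1 in mature controls (log2 fold change 2.04 ± 0.61, adjusted p = 0.00737). Zc3h12a had 12, 12 and 7 against 0, 3 and 2 counts (2.26 ± 0.67, adjusted p = 0.00725), and it also rose against immature ILC2 (adjusted p = 0.000626). Nfkbie did not pass against immature ILC2 (0.93 ± 0.50, adjusted p = 0.171). Neither gene reached 10 counts in a marrow library, so both entered the test only through lung, and the filter favoured a difference. Among the 375 genes that entered in this way, 39.5% passed against mature and 38.1% against immature ILC2.

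Of 34 other known NF-kB targets, 14 were tested. In lung 7 were higher and 2 lower against mature ILC2, and 7 higher and 2 lower against immature ILC2, beside 25.6% and 25.5% of all tested genes called. All 7 that were higher entered the test through their lung counts, so the filter favoured a difference in them. Of the 6 targets that would have passed the filter in the marrow libraries alone, 0 rose and 2 fell in each comparison. Of all such genes 22.3% were called against mature and 22.4% against immature ILC2. Gadd45b, a stress-response gene, had 144, 147 and 170 counts in lung controls, 0, 1 and 0 in mature controls and 0, 1 and 1 in immature controls. Cxcl2, a neutrophil chemokine, had 97, 140 and 132 counts in lung controls and 0 in all 12 marrow libraries. Csf2, which encodes GM-CSF, was at 931 ± 36.7 CPM in lung controls and 44.2 ± 16.2 CPM in mature controls (4.30 ± 0.29, adjusted p = 2.07e-23), and Cd44, an adhesion receptor, at 1044 ± 133 and 89.6 ± 26.2 CPM (3.55 ± 0.25, adjusted p = 8.11e-22). The 2 that fell against mature ILC2, named after their values were seen, were the chemokine gene Ccl5 (-3.00 ± 0.50) and the transcription factor gene Irf1 (-1.91 ± 0.40).

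For CD45 in lung, where Nfkb1 and Nfkbiz rose, 0 of the 14 targets rose and 1 fell. That was Cd44, with 87, 112 and 111 counts in controls and 46, 84 and 35 in KO libraries, or 1044 ± 133 against 631 ± 155 CPM (log2 fold change -0.69 ± 0.17, adjusted p = 0.00630), where 2.51% of all genes were called. The median of the 14 was -0.01, and 7 of the 14 fold changes were positive. The nearest to a rise, named after their values were seen, were Myc and Cxcl2. Myc was at 1.32 ± 0.43 (adjusted p = 0.0798) and Cxcl2 at 0.42 ± 0.14 (adjusted p = 0.0964), without a call (edgeR). None of the 14 passed in mature or immature ILC2, and the smallest p in immature ILC2 belonged to Myc (1.60 ± 0.54, adjusted p = 0.130).

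**Figure D3:**
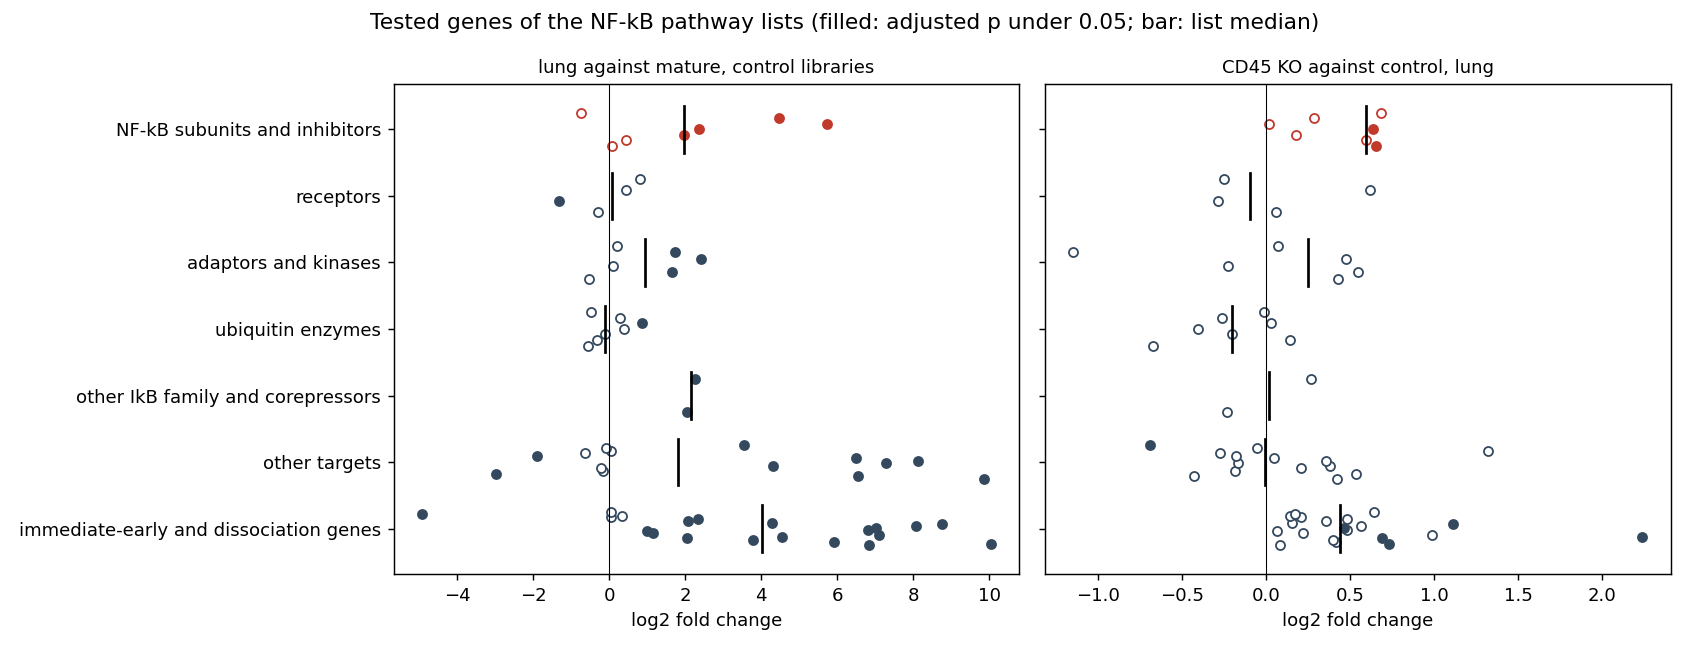
Log2 fold change of each tested gene of the 7 lists, for lung against mature control libraries (left) and for CD45 KO against control in lung (right); filled points passed the test (edgeR) and the bar is the list's median. On the left most filled points above 0 belong to genes that entered the test through lung. On the right 2 of 7 subunits and inhibitors and 5 of 20 immediate-early and dissociation genes are filled above 0. Of 14 other targets 1, Cd44, is filled below 0.

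A list of immediate-early and dissociation genes, which respond to cell handling as well as to receptor signals, moved with the same libraries. Of 25 listed, 20 were tested. Among them are the abundant chaperone genes Hspa8 and Hsp90ab1, with up to 218 and 148 counts in a marrow library. A sum over the list is therefore not a level of immediate-early genes alone. This sum was 14720 to 16290 CPM in lung controls and 21030 to 22180 CPM in lung CD45 KO libraries. In the 12 marrow libraries it was 3567 to 4857 CPM. In lung 5 rose with CD45 KO and none fell, all 20 fold changes were positive, and the median was 0.44, beside 2.51% of all genes called. Egr1 rose from 127 ± 18.6 to 612 ± 136 CPM (log2 fold change 2.24 ± 0.28, adjusted p = 8.81e-09) and Nr4a3 from 578 ± 84.7 to 1241 ± 172 CPM (1.11 ± 0.17, adjusted p = 1.93e-06). In lung 16 were higher and 1 lower against mature controls, and 16 higher and 1 lower against immature controls. This stands beside 25.6% and 25.5% of all tested genes called. Of the 16, 11 entered the test through lung, so the filter favoured a difference in them. Of the 9 that would have passed the filter in marrow alone, 5 rose and 1 fell in each comparison, beside 22.3% and 22.4% of such genes called. Their part in the levels of the NF-kB genes was not tested.

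The genes whose pattern over the 18 libraries was most like each inhibitor follow, with Pearson's r on log2 CPM as a description. The libraries form a lung and a marrow cluster, so these values carry mostly the distance between the 2 tissues. For Nfkbia they were Nr4a1 (r = 0.99) and Csf2 (0.98), for Tnfaip3 Gadd45b (0.98) and Fosl2 (0.98), for Nfkbiz the type 2 cytokine gene Il5 (0.98) and Ramp3 (0.97), and for Nfkbid Nr4a1 (0.98) and Xist (0.98). Xist, the transcript of the inactive X chromosome, was counted only in lung libraries. Within the 12 marrow libraries r was 0.66 and 0.52 for Nfkbia with Nr4a1 and Csf2, 0.61 and 0.57 for Tnfaip3 with Gadd45b and Fosl2, 0.55 and 0.41 for Nfkbiz with Il5 and Ramp3, and 0.31 for Nfkbid with Nr4a1. Xist had no counts there, so no value is given for Nfkbid with Xist.

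Nfkb1 was most like the type 2 cytokine gene Il13 (0.89) and Lmo4 (0.88), at 0.29 and 0.69 within marrow. Nfkb2 was most like Fxyd5 (0.76) and Ppp3ca (0.74), at 0.65 and 0.50 within marrow. Birc3 was most like Sirt2 (0.88) and Shisa5 (0.84), and in the 12 marrow libraries these were at 0.96 and 0.85. With a prior count of 0.5 in place of 2, the nearest genes were Lmo4 and Myh9 for Nfkb1, Nr4a1 and Junb for Nfkbia, Nr4a3 and Tnfaip3 for Nfkbiz, Cd69 and Junb for Nfkbid, and Gadd45b and Fosb for Tnfaip3, and those of Nfkb2 and Birc3 were as above. Among the 4 inhibitor genes Nfkbia, Nfkbiz, Nfkbid and Tnfaip3, r ran from 0.93 to 0.97 over 6 pairs in all libraries and from -0.33 to 0.57 within marrow.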

How the data were processed

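RNA was counted in 18 libraries of 200 sorted ILC2 each per the labels, although the extract protocol mentions tubes of 100 cells. Per the labels' protocols, cDNA was primed with a barcoded oligo-dT primer and amplified after template switching. The submitters' processing notes name STAR and mm10. The sources used here do not state how reads were counted, with which strand setting, or whether they were collapsed by barcode. Nfkb1 overlaps the annotated entry Gm43430 on its own strand, and Nfkb2 overlaps Psd on the other strand. The counts of both are less certain. The values deposited by the authors are raw whole-number counts per gene symbol.

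Libraries were grouped by population and genotype as labelled. After TMM scaling and a filterByExpr filter (minimum count 10), a model with 6 group means was fitted to all 18 libraries in edgeR 4.0.16 (R 4.3.3). Comparisons were tested with the two-sided quasi-likelihood test, Benjamini-Hochberg adjusted over 1916 genes with a threshold of 0.05. SE is the absolute log2 fold change over the square root of F. Log2 CPM for correlations had a prior count of 2.

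The 10 genes and all gene lists were chosen with earlier results of these data known. The text names all 10. Pathway genes were picked, for each list and comparison, as up to 4 passing genes with the smallest p, or the nearest one where none passed. Not all of these are given for every comparison. Further genes named are the most correlated genes and Ptprc, and any gene outside this rule is marked where it appears. Alternatives were DESeq2 1.42.0 (size factors and Wald test), other filters, a fit restricted to the contrast's own libraries, a replicate block, and leave-one-out fits. A fit that leaves out Rn45s and Rn4.5s, which take many counts, was chosen after seeing the data. Scripts were tested on simulated data. There, 21.5% to 29.3% of 2-fold changes were recovered for the differences of CD45 effects, and 53.3% to 63.5% for the other comparisons. A gene that was not called may therefore still differ.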

Additional observations from a re-analysis of the deposited data

Results flagged for a closer look

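The effect of CD45 KO on Nfkb1 was higher in lung than in mature bone marrow ILC2 by 1.05 ± 0.26 on the log2 scale (adjusted p = 0.0461), a difference between populations by a test of the difference itself. The lung libraries rose with CD45 KO and the mature KO libraries were all below their controls. The effect on Tnfaip3 was higher in lung than in immature bone marrow ILC2 by 1.80 ± 0.39 (adjusted p = 0.00646), by the same kind of test. The Nfkb1 call was lost without the filter on low counts (adjusted p = 0.489), with only the libraries of the contrast (0.0553) and in most fits with 1 library left out. The Tnfaip3 call was lost without immature CD45 KO replicate 1 (adjusted p = 0.0650) or immature control replicate 1 (0.0818). Both differences compare lung with marrow, where tissue and sex cannot be told apart.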

How the results depend on the processing

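Of 652 values of the 7 tested subunits and inhibitors under the alternatives, 610 kept their direction and side of the threshold, 23 lost a call, 1 gained one and 18 changed sign. Of 14 further values of Rel from fits without a filter, 11 kept both and 3 lost a call. The pathway-list genes were not refitted. The median log2 fold change of all genes lay within 0.0658 of 0 in every fit. The number of the 7 genes called for CD45 in immature ILC2 went from 1 to 0 without the filter on low counts, and to 0 to 1 with 1 library left out. In lung it went from 2 to 1 without the filter, and to 1 to 2 with 1 library left out. For the lung minus mature difference it went from 1 to 0 without the filter, in a fit of only the libraries of the contrast, and without Rn45s and Rn4.5s, and was 0 to 1 with 1 library left out; without mature CD45 KO replicate 3 the gene called was Birc3 (adjusted p = 0.0482). For lung minus immature it was 0 to 1 with 1 library left out.

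Without the filter, Nfkb2 for CD45 in immature ILC2 turned to 0.0195 and Tnfaip3 for lung minus mature to -0.0706, and with only the libraries of the contrast Nfkbid for CD45 in lung turned to -0.0680. With 1 library left out, values that changed sign ran from -0.0190 to 0.171 (Nfkb1, lung against mature), -0.61 to 0.27 (Nfkb2, CD45 in immature), -0.56 to 0.58 (Nfkb2, CD45 in mature), -0.0365 to 0.826 (Nfkb2, lung against immature), -0.218 to 0.0250 (Nfkbia, CD45 in immature), -3.59 to 0.62 (Nfkbid, CD45 in immature), -0.0703 to 0.126 (Nfkbid, CD45 in lung), -0.0354 to 0.445 (Nfkbiz, lung minus mature), -0.10 to 0.54 (Tnfaip3, CD45 in mature) and -0.25 to 0.39 (Tnfaip3, lung minus mature). None of these was called. The cause was not tested.

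Counts over all genes moved by over 1.5 times in some fits. For CD45 in mature ILC2 5 genes became 1 with DESeq2 and 0 with only the libraries of the contrast, and ran from 3 (without mature CD45 KO replicate 3) to 12 (without mature CD45 KO replicate 1). In immature ILC2 32 became 10 with DESeq2 and 12 without immature control replicate 1. In lung 48 became 22 without the filter and 29 without lung control replicate 2 or 3. The lung minus mature difference went from 6 to 11 with DESeq2 and 2 with only the libraries of the contrast, and ran from 1 (without mature control replicate 1) to 13 (without mature CD45 KO replicate 3). Lung minus immature went from 7 to 13 in the fit of only those libraries and to 2 without immature control replicate 1. Mature against immature controls went from 1 to 4 without the filter and to 3 with only their libraries. Same-numbered libraries were not paired by the labels, and their deviations correlated at -0.0888 to 0.0755 over 45 pairs. With the replicate block the counts of the 7 genes were 0, 1 and 2 for CD45 in mature, immature and lung ILC2, and 30 genes in all passed in immature and 44 in lung. Low counts limit Rel, Rela, Relb and Nfkb2, and Nfkbid in marrow.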
